A study of Arabidopsis thaliana with 6 samples.

Results

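Paraquat-sprayed and mock-sprayed rosette leaves harvested 4 h after spraying were compared on 2 Affymetrix ATH1 arrays, 1 per treatment, out of 6 arrays in the series. The other 4 arrays hold the same treatments at 1 and 2 h. All plants were of the Arabidopsis thaliana flu1-1 mutant in Landsberg erecta (Ler), 3 weeks old, kept in continuous light. The treated plants received paraquat (methyl viologen) in 0.1% Tween, and the mock plants received the 0.1% Tween alone. The titles give the paraquat dose as 20 mM but the protocol gives 20 microM, and these sources leave the true dose unsettled. Leaves of 5 to 6 plants made a sample, and RNA of 2 experiments was pooled before labelling. No wild-type plants are among the 6 samples, so every value below is from the mutant.

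Of 22746 probe sets that are not array controls, 13923 had a signal above 86 on at least 1 of the 4 h arrays and were compared as log2(signal + 34). The remaining 8823 were dim on both arrays. A ratio is always paraquat over mock on this scale, which understates the change of dim probe sets. With 1 array per treatment and time there is no replicate check, so no p-value is given and every statement compares these arrays, not the treatments in general. The pool of experiments inside each array also hides how far the experiments differed.

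In illuminated chloroplasts, paraquat diverts photosystem I electrons to oxygen, so that superoxide and then hydrogen peroxide form. The FLU protein restrains the chlorophyll precursor pathway in darkness, and flu plants are known for releasing singlet oxygen when moved from dark to light, which continuous light avoids. Oxidative stress in leaves is known to engage chaperones, enzymes that conjugate or reduce reactive compounds, the ascorbate cycle, and stress signalling genes.

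At 4 h, 172 of the 13923 probe sets (1.24%) were at least 2-fold higher with paraquat and 73 (0.524%) were at least 2-fold lower. Small heat shock protein genes, glycosyltransferase and reductase genes, and defence-related signalling genes were among the higher ones. Cold, drought and senescence genes and iron-deficiency genes were among the lower ones. At least 3-fold differences numbered 58 higher and 11 lower, and at least 4-fold differences 34 higher and 3 lower. The log2 ratios nearest the threshold were 1.0001 just inside and 0.997 just outside on the higher side, and -1.0004 inside and -0.9998 outside on the lower side. In whole leaves, fewer cells of a type and less RNA per cell cannot be told apart.

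**Figure D1:**
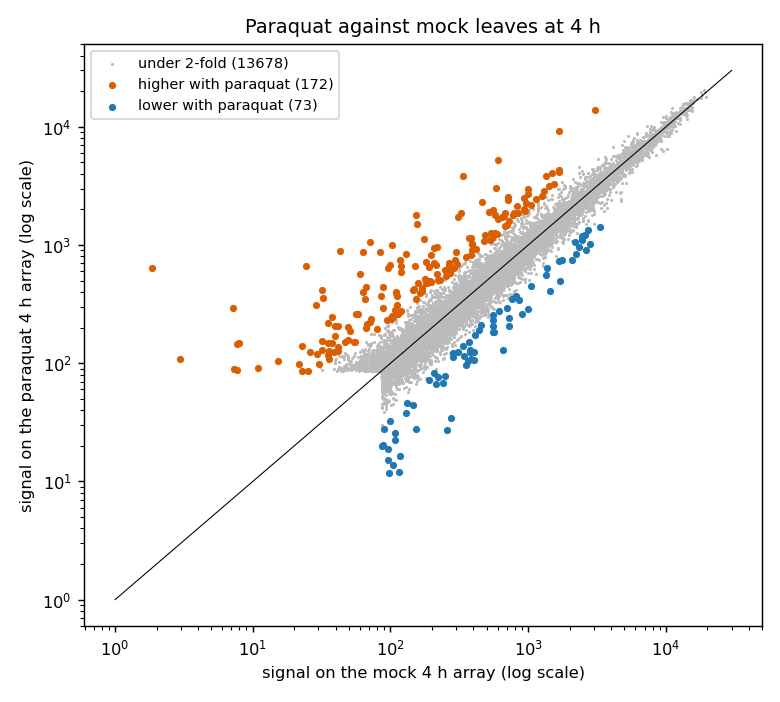
Signal of each of the 13923 probe sets on the paraquat 4 h array (vertical, log scale) against the mock 4 h array (horizontal, log scale). Orange points are the 172 probe sets at least 2-fold higher with paraquat, blue points the 73 at least 2-fold lower, and grey points the rest, which lie along the diagonal.

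The median log2 ratio of all 13923 probe sets was -0.02, with a 5th percentile of -0.48 and a 95th percentile of 0.53. The SD of the ratios was 0.35 at 4 h, against 0.28 for the same probe sets at 1 h and also at 2 h. The pair at 2 h had 64 of 14223 past 2-fold on the higher side (0.45%) and 41 on the lower side (0.288%). The pair at 1 h gave 65 of 14219 higher (0.457%) and 46 lower (0.324%). The 4 h pair thus held the most 2-fold differences of the 3 pairs.

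Of the 172 higher probe sets, 89 name 1 gene in the array's annotation, 7 name several and 76 name none. Of the 73 lower probe sets, 40 name 1 gene and 33 name none. Genes are described only from probe sets that name 1 gene. The mock array was below the floor of 86 for 57 of the higher probe sets, and the paraquat array was below it for 24 of the lower ones.

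Array checks were alike for the 4 h pair except for ribosomal signal. Median signals lay between 157.7 and 162.0 on all 6 arrays, and 59.1% to 60.8% of probe sets were above the floor. The control for 25S ribosomal RNA read 243 on the paraquat 4 h array and 92.8 on the mock 4 h array, and its part in the results was not tested. The 3′ to 5′ ratio of the GAPDH control, a check of RNA integrity, was 0.892 with paraquat and 1.01 with mock at 4 h. Of 20 cell type markers listed for leaf, root and flower, 5 have a probe set of their own. Rubisco activase (RCA), a mesophyll gene, read 15210.3 with paraquat and 14855 with mock at 4 h. The root marker PYK10 read 23.6 and 25.9 on the same arrays, and the root hair expansin EXPA7 read 37.4 and 6.86, all below the floor. The guard cell gene FMA read 317 with paraquat and 255 with mock.

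The 4 h ratio can come from either array moving after 2 h, so each array was also set against the 2 h array of its own treatment. An array is said below to have risen or fallen when its log2 value differed from that at 2 h by at least 1. These changes share the 4 h arrays with the ratios that chose the probe sets, so they describe the chosen probe sets and are no test of them. Over all 13923 probe sets, paraquat rose for 1.73% and fell for 0.625%, and mock rose for 2.72% and fell for 1.53%.

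Among the higher probe sets, both arrays moved about equally often after 2 h. Paraquat rose for 47 of the 172, and mock fell for 45, with 6 probe sets in both counts. Measured from 1 h, paraquat rose for 76 and mock fell for 49, so the balance depends on the earlier time chosen. For 84 of the 172, neither array moved 2-fold. Median signals of the 172 at 1, 2 and 4 h were 328, 402 and 630.1 with paraquat, against 269.7, 289 and 166 with mock. The change from 2 h was larger on the paraquat array for 87 of them and on the mock array for 85.

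Among the lower probe sets, mostly the mock array moved. Mock rose for 46 of the 73, while paraquat fell for 7, with 2 probe sets in both counts. Neither array moved 2-fold for 22. Median signals of the 73 at 1, 2 and 4 h were 176, 152 and 141 with paraquat, against 134, 133 and 406 with mock. The paraquat median was lower at each later time, while the mock median was high at 4 h alone.

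**Figure D2:**
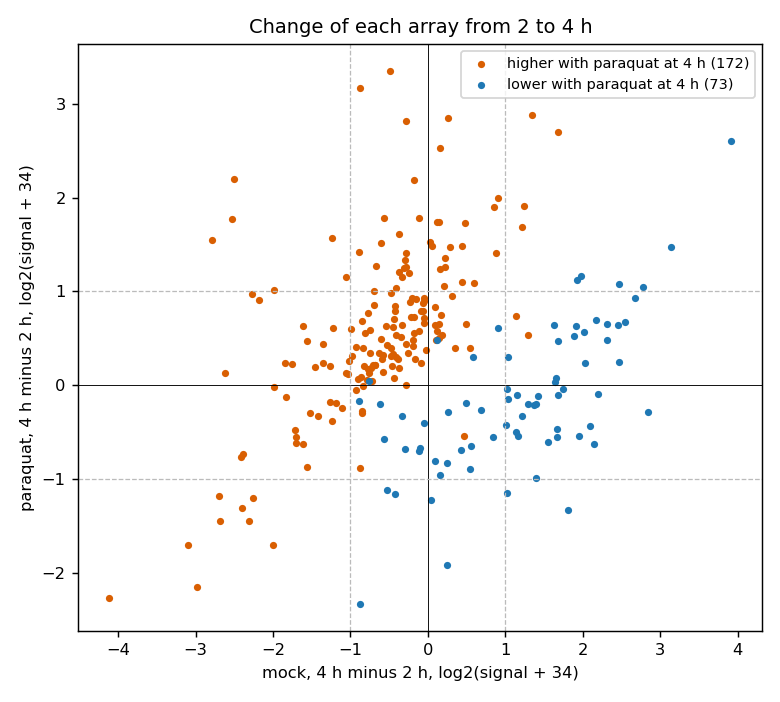
Change from 2 h to 4 h on the paraquat arrays (vertical) against the change on the mock arrays (horizontal), both in log2(signal + 34). Only the probe sets at least 2-fold different at 4 h are drawn. The 172 higher probe sets (orange) spread upwards and to the left, while most of the 73 lower ones (blue) lie to the right, where mock rose (46 of 73).

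The earlier pairs are on other arrays, which the choice of probe sets did not use; whether their leaves came from the same experiments is not stated in the sources used here. At 2 h, 136 of the 172 higher probe sets (79.1%) had a ratio above 0, against 50.4% of all 13923. At 1 h the number was 113 (65.7%), against 49.8% of all. Of the 73 lower probe sets, 31 (42.5%) had a ratio below 0 at 2 h, against 49.6% of all, and 29 (39.7%) did at 1 h, against 50.2% of all. By the sign of the ratio, the higher probe sets thus leaned at the earlier times in the direction they had at 4 h. The lower ones did not by sign, although a minority of them was past 2-fold in that direction. The leaning of the higher ones was small, with a median log2 ratio of 0.16 at 1 h and 0.31 at 2 h. At least 2-fold differences in the 4 h direction were present at 2 h for 17 of the 172 higher probe sets, against 0.409% of all, and for 7 of the 73 lower ones, against 0.208% of all. At 1 h such differences were present for 6 of the higher probe sets, against 0.474% of all, and for 2 of the lower ones, against 0.208% of all.

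The named genes were sorted by function after their values were seen, and 47 of the 89 higher and 14 of the 40 lower genes fell into a group. Those that lie outside the 25 most changed on each side and outside the gene lists were likewise picked after their values were seen. Group sizes are therefore descriptions. Groups follow in order from chaperones to signalling among the higher genes, and then the lower genes.

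Small heat shock proteins are chaperones that bind unfolding proteins, and most are nearly silent in leaves at normal temperature. Of 17 such genes listed, 9 have a probe set of their own and 7 were above the floor at 4 h. Of these 7, 6 were at least 2-fold higher with paraquat and none lower, with a median log2 ratio of 2.47, against -0.02 and 1.24% higher over all probe sets. AT2G29500, AT1G54050 and AT1G53540 passed the floor only through the paraquat array, which favours a high count, and of the 4 genes above the floor on both arrays 3 were at least 2-fold higher. The medians of the same genes were 0.17 at 1 h and -0.27 at 2 h.

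AT2G29500, a cytosolic small heat shock protein gene, read 31.5, 33.8 and 658 with paraquat at 1, 2 and 4 h, against 6.87, 47.8 and 24.4 with mock. Its 4 h log2 ratio of 3.57, or 11.9-fold on the scale used, was the highest of the named genes. AT1G54050, also of this family, read 34.4, 91.1 and 868 with paraquat, against 81.1, 64.0 and 83.7 with mock, a 4 h log2 ratio of 2.94. These genes were near or below the floor on every array but that of paraquat at 4 h. AT1G53540, another cytosolic member, showed the same course, with 29.0, 43.6 and 414 with paraquat and 6.12, 25.1 and 31.8 with mock, and a log2 ratio of 2.77.

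AT5G37670, which encodes a peroxisomal member, read 114, 95.2 and 275 with paraquat, against 84.0, 153 and 119 with mock. Its log2 ratio of 1.01 is only just past 2-fold and was 0.98 after quantile normalization. AT1G71000, a DnaJ-domain (co-chaperone) gene, read 30.0, 16.2 and 139 with paraquat, against 17.2, 27.2 and 22.6 with mock, a log2 ratio of 1.61. For all 5 of these chaperone genes the paraquat array rose after 2 h and the mock array did not move 2-fold.

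The mock array also moved for the other 4 chaperone genes. AT5G51440, which encodes a mitochondrial small heat shock protein, read 119, 396 and 836 with paraquat, against 136, 616 and 129.6 with mock, a log2 ratio of 2.41. Both treatments were high at 2 h, and at 4 h paraquat had risen by 1.02 while mock had fallen by 1.99 on the log2 scale. AT4G21870 read 3322, 5499.8 and 1118 with paraquat, against 2952, 3559 and 174 with mock, a log2 ratio of 2.47. This small heat shock protein gene was high on all arrays at 1 and 2 h, and it fell on both at 4 h, by 2.26 with paraquat and by 4.11 with mock.

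Fes1A, a nucleotide exchange factor that resets HSP70, read 547, 1142 and 1794 with paraquat, against 595, 1827 and 574 with mock, a log2 ratio of 1.59. Hop3, which links HSP70 to HSP90, read 51.6, 126 and 153 with paraquat, against 74.4, 265 and 54.3 with mock, a log2 ratio of 1.08. In both, paraquat moved less than 2-fold after 2 h and mock fell, by 1.61 for Fes1A and by 1.76 for Hop3. At 2 h these genes were higher on the mock array, with log2 ratios of -0.66 and -0.90.

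Heat shock factors and larger chaperones were listed separately. Of 21 such genes, 4 have a probe set of their own, and all 4 were above the floor. No heat shock factor gene is among the 4, so those factors were not measured here. None of the 4 was 2-fold different at 4 h, against 1.24% higher and 0.524% lower over all probe sets. Their median log2 ratio was 0.43. The closest was AT2G20560, a DnaJ-type heat shock gene, with 504 with paraquat and 247 with mock at 4 h (0.94). AT5G48570, a ROF-type immunophilin, read 741 and 421 (0.77), and Hsp70-2 read 2795 and 3341 (-0.25). AT2G19310, the small heat shock protein gene above the floor that did not reach 2-fold, read 1491 with paraquat and 1277 with mock (0.22).

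**Figure D3:**
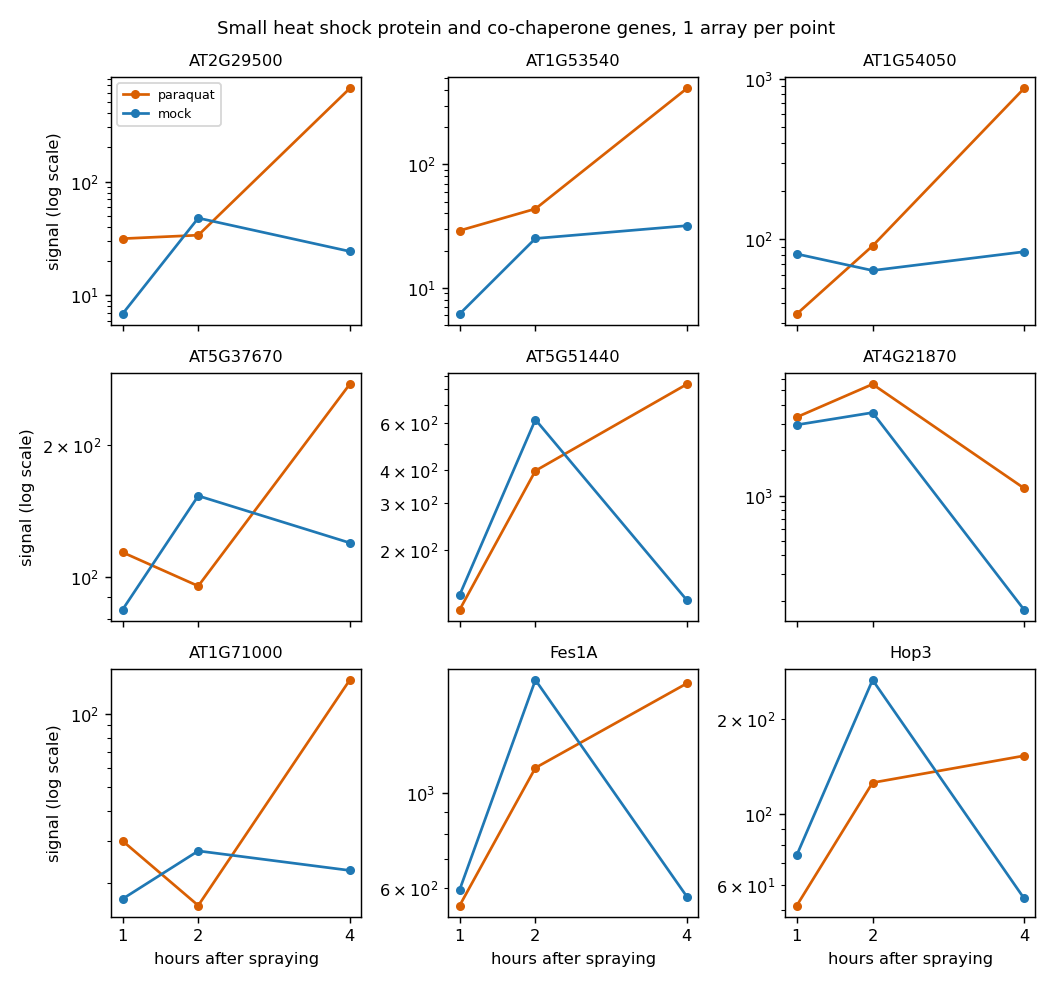
Signal (log scale, own axis for each gene) against hours after spraying for heat shock and chaperone genes, with paraquat in orange and mock in blue and 1 array per point. For AT2G29500, AT1G54050 and AT1G53540 the paraquat point at 4 h lies far above the other 5 points, while Fes1A, Hop3 and AT5G51440 peak at 2 h with mock and drop at 4 h.

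Enzymes and carriers that handle foreign or reactive compounds were another group in which the paraquat array often rose. Of 9 such genes, paraquat rose for 5, mock fell for 1 and neither moved 2-fold for 3. Their median change from 2 h was 1.20 with paraquat and -0.06 with mock. Ratios at 4 h ran from 1.10 to 2.92 with a median of 1.51, while the median at 2 h was 0.35.

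Glycosyltransferases of the UGT73 group attach glucose to plant and foreign compounds. UGT73B5 read 62.6, 274 and 995 with paraquat, against 30.7, 91.2 and 102 with mock, with log2 ratios of 0.58, 1.30 and 2.92 at 1, 2 and 4 h. It was thus higher with paraquat at each time, and by more at each later one. UGT73C1 read 30.2, 36.0 and 145 with paraquat, against 2.94, 1.76 and 7.62 with mock, a 4 h log2 ratio of 2.10. UGT73B1 read 28.6, 70.1 and 153 with paraquat, against 32.9, 54.1 and 31.7 with mock (1.51), and only its 4 h paraquat signal was above the floor.

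IAGLU, which conjugates the auxin indole-3-acetic acid in Arabidopsis, read 84.4, 238 and 873 with paraquat, against 110.3, 269 and 299.9 with mock, a log2 ratio of 1.44. The whole UDP-glycosyltransferase family was not shifted alike. Of 30 members above the floor, these 4 were at least 2-fold higher and none lower, against 1.24% and 0.524% of all probe sets, and the family median was 0.09. Of the 4, UGT73C1 and UGT73B1 passed the floor only through the paraquat array, which favours a high count. UGT73B4, which read 60.8 with paraquat and 1.99 with mock at 4 h, stayed below the floor.

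AER, an alkenal reductase that removes reactive carbonyls left by lipid peroxidation, read 432, 699 and 1719.9 with paraquat, against 474, 547 and 641 with mock, a log2 ratio of 1.38. AT5G16960, a zinc-binding dehydrogenase gene next to AER on the chromosome, read 11.7, 87.5 and 246 with paraquat, against 77.8, 58.8 and 37.5 with mock, a log2 ratio of 1.97. These genes were the only neighbours among the named genes that differed 2-fold. Whether their probes share targets was not tested.

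OCT5, an organic cation/carnitine transporter, read 114, 435 and 831 with paraquat, against 149.8, 205 and 195 with mock, with a log2 ratio of 0.97 at 2 h and 1.91 at 4 h. CYP71B22 read 147 with paraquat and 37.8 with mock at 4 h (1.34), and here mock fell by 1.61 after 2 h. It was the only 1 of 12 cytochrome P450 genes above the floor to differ 2-fold, and it passed the floor only through the paraquat array. The background share over all 13923 was 1.24% for the higher side and 0.524% for the lower side. AT4G19880, a glutathione transferase family gene, read 1276 and 578 (1.10). Of 26 classical glutathione transferases listed, only 4 have a probe set of their own, so the others were not measured. GSTU20 and GSTU16 were above the floor, with ratios of -0.10 and 0.01. Below the floor, GSTU25 read 79.5 with paraquat and 23.3 with mock at 4 h, and GSTU22 read 43.3 and 34.4. GSTU16 read 185, 117 and 607 with paraquat, against 126, 137 and 604 with mock, so it rose in both treatments.

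**Figure D4:**
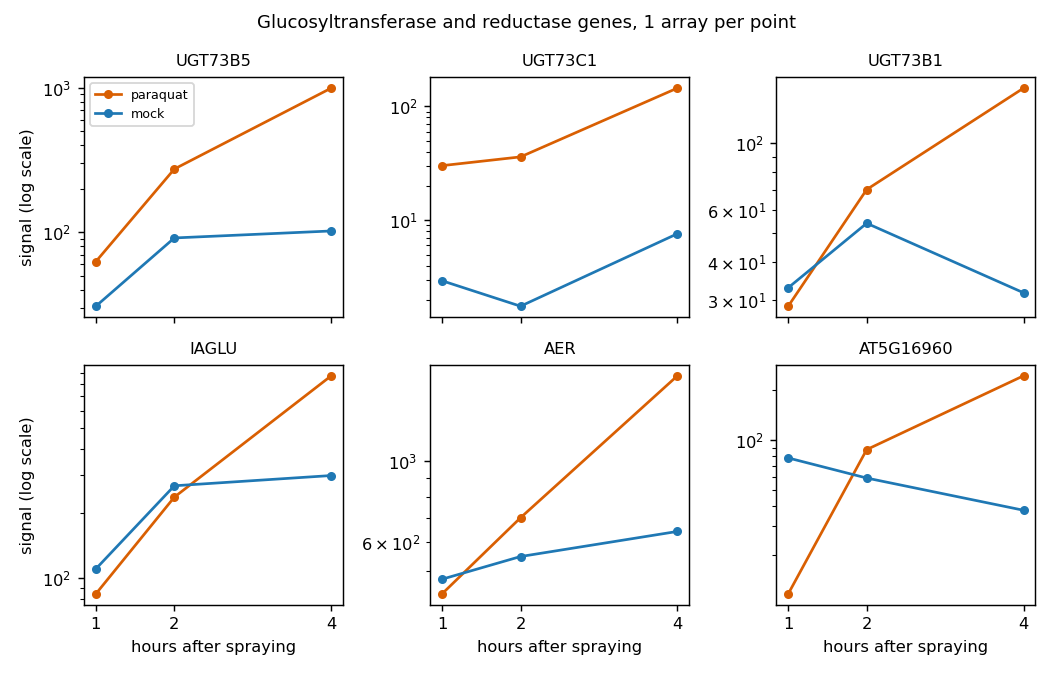
Signal (log scale, own axis for each gene) against hours after spraying for 4 glucosyltransferase genes and 2 reductase genes, with paraquat in orange and mock in blue and 1 array per point. The orange line is steepest after 2 h or rises throughout, and UGT73B5 reaches 995 with paraquat against 102 with mock at 4 h.

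Of the 3 ascorbate and mitochondrial stress genes, ATMDAR2 and AT2G41730 were already past 2-fold at 2 h. ATMDAR2, a monodehydroascorbate reductase that recycles ascorbate, read 1849, 4259 and 4273 with paraquat, against 1216, 2051 and 1683 with mock. Its log2 ratios at the 3 times were 0.59, 1.04 and 1.33, and the paraquat signal was level after 2 h. AT2G41730, a gene listed as responding to mitochondrial stress, read 359, 1199.6 and 2294 with paraquat, against 169, 515 and 459 with mock, with ratios of 0.95, 1.17 and 2.24. Its probe set carries the x_at suffix, and whether its probes also match other transcripts was not tested. AT2G21640, from the same list, read 244, 212 and 390.3 with paraquat, against 174, 172 and 163 with mock, with ratios of 0.42, 0.25 and 1.11.

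Of 29 antioxidant enzyme genes listed, only 6 have a probe set of their own, and the others were not measured. All 6 were above the floor, ATMDAR2 was the only 1 to differ 2-fold, and the median of the 6 was 0.12. Among all 13923, 1.24% were past 2-fold on the higher side and 0.524% on the lower side, with a median of -0.02. The chloroplast ascorbate peroxidase genes SAPX and TAPX read 2369 and 1506 with paraquat, against 1792 and 1383 with mock (0.40 and 0.12). GR1, a glutathione reductase gene, read 2644 with paraquat and 3188 with mock (-0.27). The alternative NADH dehydrogenase gene NDB2, on the mitochondrial list, read 1964 and 2735 (-0.47).

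Defence and elicitor signalling genes were the largest group, with 15 members, and by the median the mock array changed more than the paraquat array. Paraquat rose for none of the 15, mock fell for 6 and neither moved 2-fold for 9. The median change from 2 h was -0.01 with paraquat and -0.93 with mock, although B120, CML37 and AT2G38870 changed more on the paraquat array. Ratios at 4 h ran from 1.02 to 2.45 with a median of 1.44. The group was filled from the higher genes only, so it does not show that such genes differed in 1 direction. CML41, a calmodulin-like gene like CML37, and the beta-1,3-glucanase family gene AT4G16260 were lower (-1.23 and -1.05) and are described below.

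AT2G22880, which encodes a VQ-motif protein of the kind that partners WRKY factors, read 255, 265 and 309 with paraquat, against 203, 138 and 28.8 with mock, a log2 ratio of 2.45. AT1G07160, a protein phosphatase 2C gene, read 96.3, 112 and 148 with paraquat, against 63.1, 48.5 and 7.93 with mock (2.12). AT1G26380, which encodes a berberine bridge-like oxidase, read 428, 767 and 439 with paraquat, against 174, 618 and 88.3 with mock (1.95). In these 3 genes the mock signal at 4 h was the lowest of the 6 arrays.

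PUB23, a U-box ubiquitin ligase that dampens pattern-triggered immunity in Arabidopsis, read 908, 460.0 and 368 with paraquat, against 748, 385 and 111 with mock (1.47). It declined from 1 h in both treatments and declined further with mock. The TIR-domain gene AT5G44910 read 313, 360.3 and 137 with paraquat, against 335, 328 and 41.5 with mock (1.18), and it was the only member of the group that fell on both arrays. The leucine-rich repeat gene AT1G33590 read 2013 with paraquat and 934 with mock at 4 h (1.08), against 3105 and 3110.1 at 2 h.

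Others of the group were higher without either array moving 2-fold. The legume lectin gene AT3G16530 read 957, 2238 and 2966 with paraquat, against 785, 1800.1 and 995 with mock (1.54). AT2G38870, a serine protease inhibitor gene, read 1155, 2635 and 4096 with paraquat, against 893, 2179 and 1491 with mock (1.44). Both rose on both arrays between 1 and 2 h and then parted. The receptor-like kinase gene B120 read 261, 218 and 401 with paraquat, against 206, 160.2 and 110.5 with mock (1.59). CML37, a calmodulin-like calcium sensor gene, read 1022, 741 and 1233 with paraquat, against 719.6, 809 and 589.8 with mock (1.02).

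Transcription factor genes formed a group of 4, all from the higher side, and how many such genes were measured was not counted. AT1G22810, an ERF-type factor, read 237, 242 and 219 with paraquat, against 419, 213 and 35.2 with mock (1.87), a difference made by the mock array. STZ, a C2H2 zinc finger repressor also called ZAT10, read 1597, 2335 and 3281 with paraquat, against 1098, 1770.4 and 1539 with mock (1.08). AT5G61590, an ERF-type factor, read 3372, 1169 and 621 with paraquat, against 2575, 486 and 249.9 with mock, and its ratio was 1.21 at both 2 h and 4 h. None of the 6 WRKY genes above the floor was 2-fold different. Among all 13923 probe sets 1.24% were higher and 0.524% lower, so 6 genes are too few to show a lack of change. WRKY6 was the nearest, with 855 with paraquat and 428 with mock (0.94).

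The 5 cell wall genes were higher by different courses. AT1G57590, a pectin acetylesterase gene, read 216, 108 and 1011 with paraquat, against 223, 132 and 388 with mock (1.31). AT1G60590, a pectin lyase-like gene, read 114, 127 and 1011 with paraquat, against 67.7, 97.9 and 389 with mock (1.30). These 2 rose on both arrays, and by more with paraquat. XTH18, a xyloglucan-modifying enzyme gene, read 1755, 745 and 206 with paraquat, against 2328, 595 and 39.7 with mock (1.70). AT5G62360, a pectin methylesterase inhibitor gene, read 249, 517 and 188 with paraquat, against 253, 413 and 50.5 with mock (1.39), and like XTH18 it fell on both arrays, by more with mock. EXPA8, an expansin that loosens walls, read 59.2, 140.4 and 282 with paraquat, against 97.1, 194 and 107 with mock (1.16), with neither array past 2-fold after 2 h. The other 7 expansins above the floor were under 2-fold, and the family median was -0.31. The median of all 13923 was -0.02, with 1.24% past 2-fold on the higher side and 0.524% on the lower side.

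Several strongly higher genes were put in no group. AT1G76600 read 1415, 1242 and 3862 with paraquat, against 742, 446 and 338 with mock, with ratios of 0.90, 1.41 and 3.39 at 1, 2 and 4 h. AT4G01870 read 1671, 7238 and 9215 with paraquat, against 844, 2019.7 and 1685 with mock, with ratios of 0.96, 1.82 and 2.43. Both genes were higher with paraquat at all 3 times. AT3G20340 read 354, 1001 and 679 with paraquat, against 95.9, 62.6 and 99.1 with mock, and its ratio was larger at 2 h (3.42) than at 4 h (2.42). AT1G05575, a gene from a list of singlet oxygen-responsive genes of flu, read 953, 542 and 1507 with paraquat, against 841, 319 and 156 with mock (3.02).

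That list of 9 genes was not of 1 direction. Of its 6 members above the floor, 2 were at least 2-fold higher, 1 was lower, and the median was -0.18. For all probe sets these were 1.24%, 0.524% and -0.02. AT1G57630, a TIR-domain gene, read 151 with paraquat and 55.1 with mock at 4 h (1.06, and 0.98 after quantile normalization). It passed the floor only through the paraquat array. AT5G39520 read 379.5, 92.5 and 207 with paraquat, against 152, 58.9 and 557 with mock (-1.29), so it was lower with paraquat at 4 h although higher at 1 h.

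Among the lower genes, those of cold, drought and senescence moved on the mock array. Mock rose for all 5 of this group, by a median of 2.19, and for 26 of all 40 lower named genes. The median change of the 5 with paraquat was -0.10, and paraquat rose for 2, LEA4-5 and SAG29. Ratios at 4 h ran from -2.17 to -1.15 with a median of -1.43, and the median at 2 h was 0.17.

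LTI30, a dehydrin that protects membranes in cold and drought, read 403, 439 and 408 with paraquat, against 510.4, 287 and 1430.4 with mock, a log2 ratio of -1.73. COR15A, a chloroplast cold-regulated protein, read 579, 382 and 342 with paraquat, against 591, 403 and 864 with mock (-1.25). In both genes the mock signal at 4 h was the highest of the 6 arrays, and the paraquat signal at 4 h was close to that at 2 h. LEA4-5, a late embryogenesis abundant protein gene, read 35.9, 14.0 and 67.5 with paraquat, against 5.13, 15.4 and 239 with mock (-1.43).

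SAG29, the SWEET15 sugar transporter gene that is used as a senescence marker, read 170.3, 9.68 and 230.5 with paraquat, against 92.0, 4.84 and 553 with mock (-1.15). It rose in both treatments after 2 h, by 2.60 with paraquat and by 3.92 with mock. AT5G45630, which encodes a senescence regulator-like protein, read 21.9, 65.8 and 34.6 with paraquat, against 19.2, 46.2 and 276 with mock (-2.17). On the list for abscisic acid, drought and cold, the 4 genes above the floor all had ratios below 0, with 2 of them past 2-fold and a median of -0.91. Over all probe sets 0.524% were at least 2-fold lower, 47.0% of ratios were above 0 and the median was -0.02. COR15B read 692 with paraquat and 1035 with mock (-0.56). COR47 read 5176 and 6229 (-0.27), having risen in both treatments from 2321 and 1657 at 2 h.

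Mock rose after 2 h for both lipid transfer family genes, and paraquat also rose for AT3G22620, by 1.17. AT2G37870 read 460.4, 174 and 109 with paraquat, against 187, 152 and 383 with mock (-1.54 at 4 h). AT3G22620 read 50.1, 38.6 and 129 with paraquat, against 35.5, 70.6 and 377 with mock (-1.33). For both, the 4 h signal was the highest of the 3 mock arrays.

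**Figure D5:**
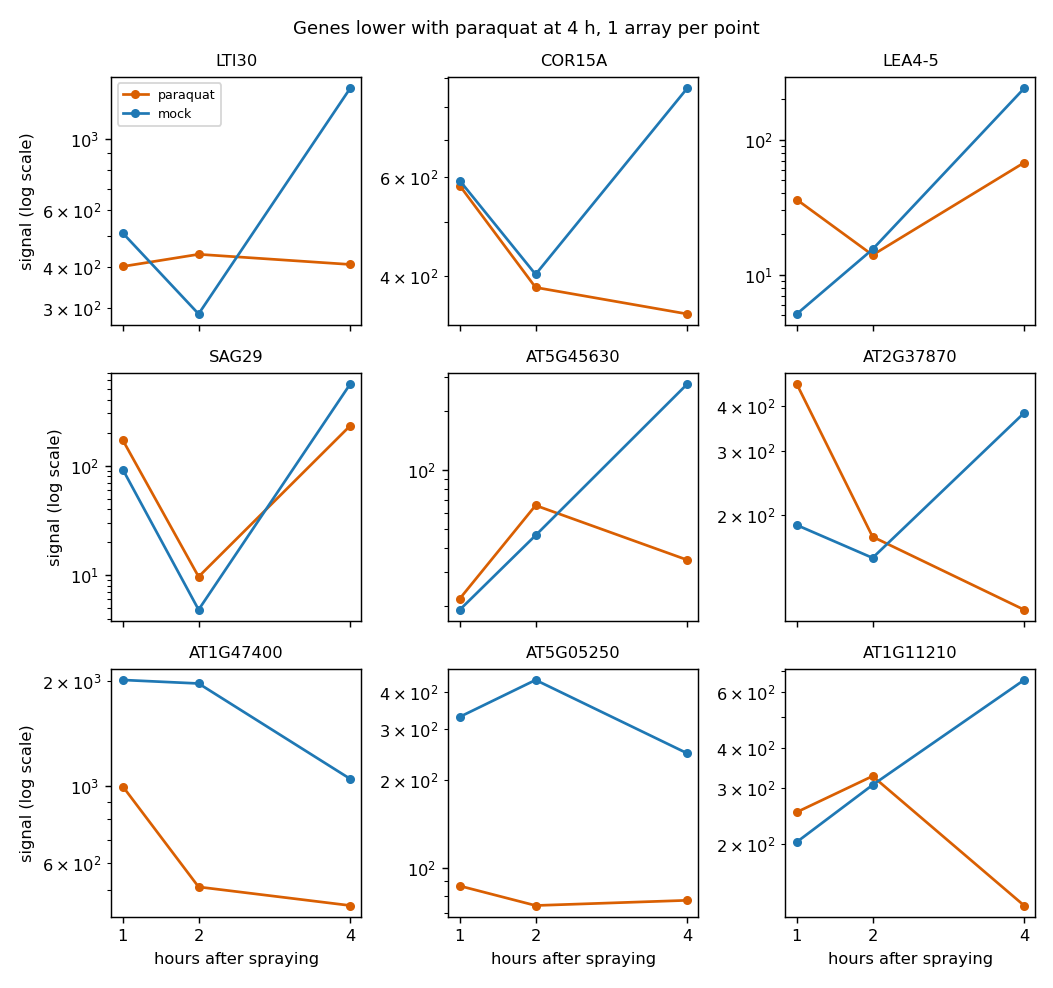
Signal (log scale, own axis for each gene) against hours after spraying for 9 genes lower with paraquat at 4 h, with paraquat in orange and mock in blue and 1 array per point. The mock line turns up at 4 h for LTI30, COR15A, LEA4-5, SAG29, AT5G45630 and AT2G37870, whereas AT1G47400 and AT5G05250 are lower with paraquat from 1 h on.

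The iron-deficiency genes had another course, in which the difference was older than 4 h. AT1G47400 belongs to a family of small peptides that promote iron uptake in Arabidopsis. It read 995, 512 and 452 with paraquat, against 2015, 1969 and 1047 with mock, with ratios of -0.99, -1.88 and -1.15. AT5G05250, a gene known to respond to iron deficiency, read 86.7, 74.3 and 77.4 with paraquat, against 329.6, 441 and 247 with mock, with ratios of -1.59, -2.13 and -1.34. Neither array moved 2-fold after 2 h for these genes, and the narrower gap at 4 h came with a lower mock signal. PYE, an iron-responsive regulator, read 177, 250.3 and 300.2 with paraquat, against 301, 421 and 257 with mock, so it was not lower at 4 h (0.20).

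Starch, sugar and redox enzyme genes were split between the arrays. MSRB9, a methionine sulfoxide reductase gene, read 1863, 2951 and 1343 with paraquat, against 2258, 3957 and 2733 with mock (-1.01). AT5G43910, a pfkB-type carbohydrate kinase gene, read 1372, 1482 and 645 with paraquat, against 1291, 1863 and 1377 with mock (-1.06). In these 2 genes paraquat fell and mock did not move 2-fold. APL3, a large subunit of the enzyme that makes ADP-glucose for starch, read 382, 408 and 279 with paraquat, against 274, 259 and 609 with mock (-1.04). AT4G16260, a beta-1,3-glucanase family gene, read 74.0, 52.3 and 46.1 with paraquat, against 64.1, 40.4 and 132 with mock (-1.05). Here mock rose and paraquat did not move 2-fold.

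AT1G11210 was the only named gene that fell with paraquat and rose with mock, reading 252, 327 and 128 with paraquat, against 203, 307 and 655 with mock (-2.09). AT2G41190, an amino acid transporter family gene, read 479, 527 and 839.6 with paraquat, against 364, 382 and 2239 with mock (-1.38). CML41, a calmodulin-like gene, read 1637, 1578 and 968 with paraquat, against 1107, 1716 and 2321 with mock (-1.23), with neither array past 2-fold. It stood opposite CML37, while the other 5 calmodulin-like genes above the floor were under 2-fold. The SWEET family had 8 genes above the floor. Of these, SWEET17, a fructose transporter gene, was higher, with 546 with paraquat and 251 with mock (1.02), and SAG29 was lower. As a background for both families, the higher side held 1.24% of all 13923 probe sets at 4 h and the lower side 0.524%.

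Heavy-metal-associated domain genes were found on both sides. AT2G36950 read 661 with paraquat and 265 with mock at 4 h (1.22), and AT5G03380 read 1254 and 533 (1.18). AT5G60800 read 347 with paraquat and 760.3 with mock (-1.06), and its ratio was also -1.06 at 2 h.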

How the data were processed

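The deposited table gives, for 22810 probe sets on 6 arrays, the linear signal intensity. Per the submitters' processing notes, the authors used MAS5 (version not given in the sources used here). After 2% trimming, the mean intensity was 500.04 on every array, so the arrays had been scaled to 1 level, which removes any difference in total RNA. Detection calls were not used here. The number of arrays limits the precision.

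The 64 control probe sets were left out. Ratios are of log2(signal + 34) among probe sets above 86 on at least 1 array of the pair, and 2-fold is a log2 difference of 1. Genes were named from the platform annotation: 13513 probe sets name 1 gene, 503 several and 8730 none, and 13436 of the named matched RefSeq (TAIR10.1). The 22 gene lists, 8 gene families and the members were chosen with earlier results of these data known, and the families were narrowed after their values were seen. The lists hold 404 entries, of which 89 have a probe set naming them alone, so most listed genes were not measured. Genes named are the 25 most changed on each side and members of the lists and families, beside those picked for a function group. No promoter or protein sequence was used. Python 3.11.15, pandas 2.3.3 and numpy 2.4.6 were used, and the counting was checked on simulated signals.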

Additional observations from a re-analysis of the deposited data

Results flagged for a closer look

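A few named genes had at least 2-fold differences of opposite direction at 4 h and at an earlier time. Each rests on 1 array per treatment and time, and the difference between times was not tested. AT5G16960, the zinc-binding dehydrogenase gene, had a log2 ratio of 1.97 at 4 h and -1.29 at 1 h, where it read 11.7 with paraquat and 77.8 with mock, both below the floor. AT5G10830 had 1.02 at 4 h and -1.90 at 1 h, with signals of 196 with paraquat and 79.7 with mock at 4 h, and of 16.1 and 153 at 1 h. AT5G15700, which encodes an organelle RNA polymerase, had -1.25 at 4 h and 1.13 at 2 h, with 25.9 with paraquat and 108 with mock at 4 h. At 2 h it read 85.0 with paraquat and 20.2 with mock, both below the floor. AT5G39520 had -1.29 at 4 h and 1.15 at 1 h. AT2G37870, the lipid transfer family gene, had -1.54 at 4 h and 1.16 at 1 h. A further 5 probe sets that do not name 1 gene turned in the same way.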

How the results depend on the processing

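The limits are 1 array per treatment and time, pooled experiments and dim mock or paraquat signals behind many ratios. No paired analysis was possible because each group is a single array and the result comes from no test. The counts, as reported, are 172 higher, 73 lower, and among them 47 where paraquat rose, 45 where mock fell, 7 where paraquat fell and 46 where mock rose. With a pseudocount 4 times as large they were 87, 30, 27, 21, 0 and 21, and 11 list members were higher instead of 17. With a pseudocount of 8.5, mock fell for 72 and paraquat for 15. Without a floor, 117 were lower, mock fell for 69 and paraquat for 20. With the floor met on both arrays, paraquat rose for 27, mock fell for 24 and paraquat fell for 4, which was also 4 with a floor 2 times as high. At 3-fold, 58 and 11 differed, and at 1.5-fold, 573 and 422. With moves called at 1.5-fold, paraquat rose for 82, mock fell for 79 and paraquat fell for 19. Measured from 1 h, paraquat rose for 76 and mock fell for 49 among the higher, and paraquat fell for 17 among the lower. By the larger change, the numbers were 85, 82 and 17. Quantile normalization (165 and 67) and 75th percentile centring (174 and 70) moved little, sharing 161 and 67, and 172 and 70, with the reported probe sets. Under the alternatives run on single genes (pseudocounts, floors, quantile and percentile scaling), no named gene with a value reversed. Of the 59 named genes past 2-fold, 23 lost it with the larger pseudocount and 2 with quantile normalization. Of all 105 named genes, 25 had no value with the floor on both arrays, 14 with the higher floor and 1 with percentile centring.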

Other observations

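The genes of photosynthesis and tetrapyrrole synthesis with a probe set of their own differed little at 4 h. These were 5 of 34 and 8 of 27 genes listed, so most of both lists was not measured. The 5 photosynthesis genes, all above the floor, had ratios from 0.03 to 0.40 with a median of 0.20. Over all probe sets the median was -0.02, and 47.0% of ratios were above 0. LHCB4.2, an antenna protein gene of photosystem II, read 5806, 4810.5 and 6699 with paraquat at 1, 2 and 4 h, against 3515, 3092 and 5066 with mock. The 8 tetrapyrrole genes ran from -0.09 to 0.35 with a median of 0.26, and 7 of them were above 0. PORB, a protochlorophyllide oxidoreductase gene, read 4199.5, 3721 and 3891 with paraquat, against 5271, 4638 and 3053 with mock.

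Of 3 sugar starvation genes above the floor, 2 were at least 2-fold higher with paraquat at 1 h, against 0.474% of all probe sets. AT3G15450 read 1602, 716 and 537 with paraquat, against 531, 352 and 308 with mock, with log2 ratios of 1.53, 0.96 and 0.74. AT4G27450 read 397, 379.7 and 394 with paraquat, against 177, 181 and 229 with mock, with ratios of 1.03, 0.94 and 0.71. Their gap was thus smaller at each later time. MCCA, the other gene, was under 2-fold at all times, with ratios of 0.42, 0.38 and 0.21. GI, a clock gene, read 229, 242 and 297 with paraquat, against 227, 224 and 156 with mock (0.80 at 4 h).

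Among probe sets that name no gene, the highest 4 h log2 ratio was 4.23, with signals of 639.6 with paraquat and 1.85 with mock, and the lowest was -2.25, with 27.3 and 257.6.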
